A study of Mus musculus with 10 samples.

Results

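The 10 genes described here are known targets of ATF4, the transcription factor at the center of the amino acid branch of the integrated stress response, and were chosen by name. They are Asns, Psat1, Phgdh, Chac1, Slc7a11, Slc3a2, Trib3, Ddit4, Sesn2 and Fgf21. All 10 were found among the 18055 genes listed in any library, and all 10 were among the 14097 genes that passed the filter on low counts. The rule that picks them uses names and no measured value, although earlier results of these data were known when it was set.

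RNA was sequenced from primary hepatocytes of C57BL/6 mice, isolated by collagenase perfusion and kept in serum-free medium overnight before treatment. The 5 groups held 2 libraries each. Vehicle cells received no fatty acid, PA cells received 200 µM palmitic acid, a saturated fatty acid, and LA cells received 12 µM linoleic acid, a polyunsaturated fatty acid, both for 24 h. PA+NTP and LA+NTP cells were pretreated for 1 h with 0.4 NU/mL Neurotropin, a non-protein extract of the inflamed skin of rabbits given vaccinia virus, before the same fatty acid. No group received Neurotropin alone, so an effect of the extract was measured only on top of a fatty acid. The doses of the 2 fatty acids differ by design and their values are therefore set side by side without a test. No source used here says whether the 2 libraries of a group came from separate animals or cultures, so the p-values cover only the spread between these libraries, which may be technical.

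When amino acids run short, when misfolded proteins collect in the endoplasmic reticulum (ER) or when other stresses act, kinases phosphorylate the translation factor eIF2alpha. Most protein synthesis then slows, whereas the Atf4 mRNA is translated more, so that ATF4 activity is set largely by translation and is read best from its target genes. ATF4 binds, often with a C/EBP partner, to C/EBP-ATF response elements (CAREs) and turns on genes that import or make amino acids, together with genes that brake growth. In the liver these targets respond to protein restriction and to ER stress, which saturated fatty acids such as palmitate are known to cause in cultured hepatocytes.

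The core of a CARE, TGATGNAA, was searched on both strands of the promoters given by RefSeq for GRCm38.p6, from 250 bases before to 50 bases after each transcript start. It was present in the window of 5 of the 10 genes, Asns, Chac1, Slc7a11, Trib3 and Fgf21, and in 3.97% of all 32851 promoters searched. The stretches of 30 bases around these matches are shown because CAREs are the elements through which ATF4 is known to act, and a match describes the letters only. Each is written 5′ to 3′ along the gene's own strand, and capitals mark the match. Where the match lies on the opposite strand, the capitals read as its reverse complement.
Asns, chr6:7693214-7693243, minus strand: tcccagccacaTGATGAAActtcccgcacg
Slc7a11, chr3:50443661-50443690, minus strand: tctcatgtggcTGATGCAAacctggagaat
Slc7a11, chr3:50443642-50443671, minus strand: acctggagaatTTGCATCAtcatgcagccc
Chac1, chr2:119351038-119351067, plus strand: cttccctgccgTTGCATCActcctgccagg
Trib3, chr2:152344028-152344057, minus strand: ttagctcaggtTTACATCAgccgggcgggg
Fgf21, chr7:45615611-45615640, minus strand: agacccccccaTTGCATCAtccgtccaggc

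Counted from the RefSeq start, the Asns match began at base -23 on the gene's strand. Slc7a11 was the gene with a pair of matches, at -66 on the gene's strand and at -47 on the opposite strand, facing each other. The opposite-strand matches began at -193 in Chac1, at -139 in Fgf21 and at 15 in Trib3, which places the Trib3 match after the transcript start. The full cAMP response element TGACGTCA was in none of the 10 windows and in 1.79% of all promoters. A TATA box, TATAAA, was in the windows of Phgdh, Trib3 and Fgf21 and in 13.6% of all promoters, and only the Fgf21 box, at -28, lay within 50 bases of the start. For the 5 genes without a CARE core, the search says only that these letters were not in this window.

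**Figure D1:**
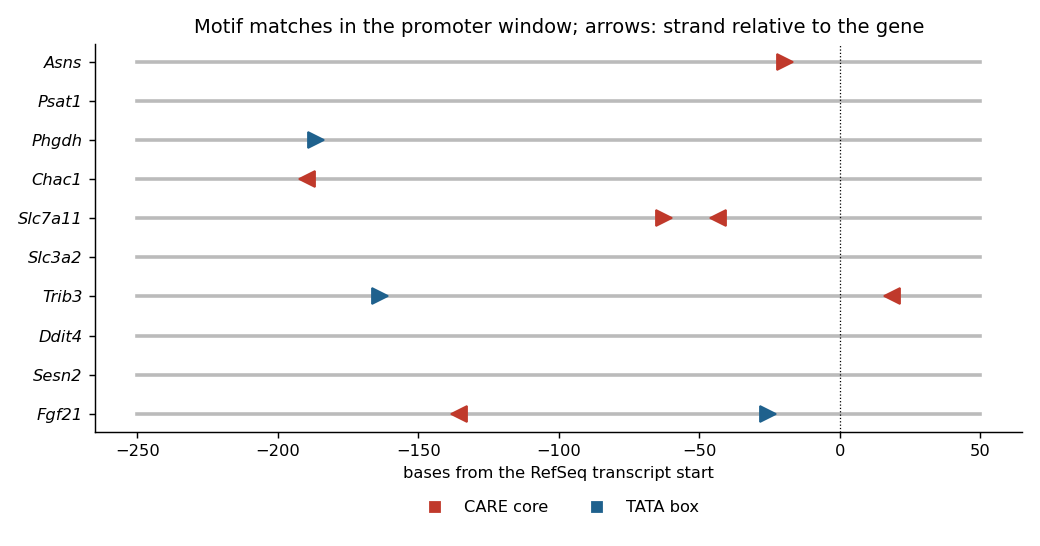
Positions of CARE cores (red) and TATA boxes (blue) in the promoter windows of the 10 genes, in bases from the RefSeq transcript start, with arrows giving the strand relative to the gene. CARE cores stand in 5 of the 10 windows, and Slc7a11 has a facing pair.

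The libraries held between 13142588 and 60046937 expected counts, so a gene was read with up to 4.57 times more counts in some libraries than in others. The total was lowest in PA replicate 1 and highest in LA+NTP replicate 2. Expression levels are given as FPKM, the authors' values scaled for transcript length and library size, which allows genes of different length to be compared. Changes are log2 fold changes of normalized counts from edgeR's quasi-likelihood test over all genes, with Benjamini-Hochberg adjustment over the 14097 genes tested. A gene is said to have passed the test at an adjusted p under 0.05, and to have been called when its fold change was also at least 1.5. All 7 hepatocyte markers were present, with a summed FPKM of 3291 to 3498 in Vehicle, 2314 to 2541 in PA, 2795 to 3130 in PA+NTP, 3319 to 3379 in LA and 3938 to 4180 in LA+NTP. The 5 markers of Kupffer cells, the macrophages of the liver, summed to 205 in both Vehicle libraries, 197 to 234 in PA, 261 to 290 in PA+NTP, 123 to 127 in LA and 178 to 192 in LA+NTP. The summed markers of stellate, endothelial and bile duct cells stayed between 7.68 and 27.4 FPKM. Their part in the results below was not tested, and in such bulk libraries fewer cells of a type and less RNA per cell cannot be told apart.

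A property of the libraries moved with the groups and touches several of these genes. Within a library, the deviation of each gene from its mean over all libraries was correlated with the GC content of its transcript. Spearman's rho across genes was 0.38 and 0.42 in Vehicle, -0.47 in both PA libraries, -0.55 and -0.56 in LA, 0.33 and 0.39 in PA+NTP and 0.53 and 0.56 in LA+NTP. Among all genes with a GC value, Trib3 stood at percentile 95.1 of GC content, Sesn2 at 91.8, Ddit4 at 89.0, Chac1 at 87.1, Slc3a2 at 76.3, Phgdh at 75.9 and Fgf21 at 72.0. Asns stood near the middle at 45.9, Psat1 at 31.8 and Slc7a11 at 16.0. Values after removal of each library's smooth GC trend are therefore given for most of the values that passed. Whether the trend arose in the cells or in the preparation of the libraries cannot be told apart, since it followed the groups.

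In Vehicle the 10 genes spanned a wide range of levels. Slc3a2, the heavy chain that carries several amino acid transporters to the cell surface, was highest at a mean of 140.2 FPKM, which put it above 97.0% of the 16540 genes listed in Vehicle. Slc7a11, the cystine-glutamate exchanger that pairs with it, followed at 71.1 ± 2.23 FPKM (SD, n = 2), and Asns, which makes asparagine from aspartate, at 56.2 ± 0.0990. Phgdh and Psat1, which catalyze the opening steps of serine synthesis from glycolytic intermediates, stood at 38.9 ± 1.499 and 31.3 ± 1.03 FPKM. Lower levels were found for Trib3, a pseudokinase that restrains AKT and ATF4 signaling, at 20.4 ± 0.0778, for Sesn2, a leucine sensor that inhibits mTORC1, at 10.7 ± 0.0849, for Chac1, which degrades glutathione, at 9.94 ± 0.346, and for Ddit4, another brake on mTORC1, at 7.42 ± 0.665. Fgf21, a hormone secreted by the stressed liver, was close to the limit of detection at 0.690 FPKM and rested on 15 and 13 counts.

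**Figure D2:**
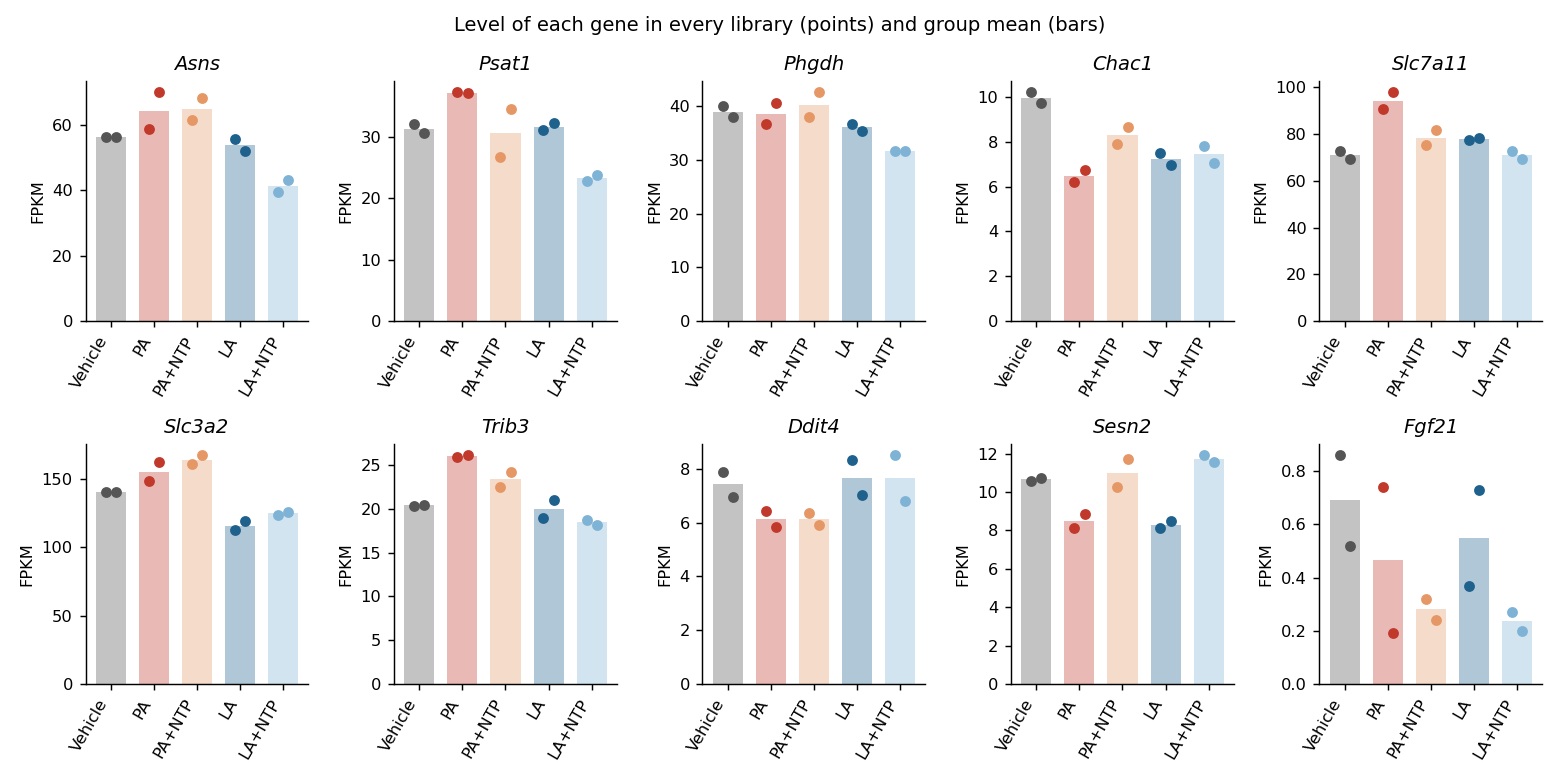
FPKM of the 10 genes (vertical axes, starting at 0) in the 2 libraries of each group (points), with the group mean as a bar. Trib3 and Slc7a11 are highest in PA, Chac1 is highest in Vehicle, and Asns and Psat1 are lowest in LA+NTP.

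Palmitate moved the 10 genes by small amounts and in both directions. None was called higher, against 6.00% of all genes tested, and none was called lower, against 8.92%. By the adjusted p alone, 5 were higher (Asns, Psat1, Slc7a11, Slc3a2 and Trib3) and 2 were lower (Chac1 and Sesn2), where 23.5% of all genes passed higher and 22.0% passed lower. The median log2 fold change of the 10 genes was 0.10, beside -0.01 over all genes tested. For 8 of the 10 genes the whole 95% interval lay within 1.5-fold in either direction, the exceptions being Chac1 and Fgf21. The share of all genes with such an interval was not computed, here or in the comparisons below. DESeq2 and limma on log2(FPKM + 1) also called none, whereas limma on log2(FPKM + 0.1) called Chac1. In edgeR 7 genes had an unadjusted p under 0.05, beside 7326 of the 14097 genes tested.

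Slc7a11 showed the smallest adjusted p among the 10 under palmitate. Its level was 72.7 and 69.5 FPKM in Vehicle and 90.8 and 97.8 FPKM in PA, so the 2 groups did not overlap. The log2 fold change was 0.44 ± 0.06 (SE), with an adjusted p of 8.79e-05 from edgeR. The same value after removal of the GC trend was 0.22, with an edgeR adjusted p of 0.0272.

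Trib3 also rose with palmitate, and its libraries lay close together. It measured 20.4 and 20.5 FPKM in Vehicle and 25.9 and 26.2 FPKM in PA. The log2 fold change was 0.38 ± 0.08 (edgeR adjusted p = 0.000929), and it stood at 0.38 without any 1 of the 10 libraries. Removal of the GC trend raised the value to 0.85 (edgeR adjusted p = 1.00e-05), which passed the 1.5-fold threshold. Trib3 was then the only called gene of the 10, where 8.73% of all genes were called in either direction. By the adjusted p alone, 5 of the 10 were then higher and none was lower, where 18.9% of all genes passed higher and 13.3% lower.

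The enzymes of asparagine and serine synthesis gave the following values. Psat1 measured 32.05 and 30.6 FPKM in Vehicle and 37.2 and 37.1 FPKM in PA, a log2 fold change of 0.28 ± 0.10 (edgeR adjusted p = 0.0335), which was 0.18 and did not pass once the GC trend was removed (edgeR adjusted p = 0.198). Asns measured 56.1 and 56.3 FPKM in Vehicle and 58.7 and 69.9 FPKM in PA, and passed by a small margin at 0.23 ± 0.08 (edgeR adjusted p = 0.0357), and again at 0.23 without the GC trend (edgeR adjusted p = 0.0497). The Asns value rested on PA replicate 2, without which it fell to 0.10 (edgeR adjusted p = 0.443). Phgdh, with 36.6 and 40.5 FPKM in PA around a Vehicle mean of 38.9, had a log2 fold change of 0.03 and a 95% interval from -0.14 to 0.19. It passed higher once the GC trend was removed, at 0.27 (edgeR adjusted p = 0.0183). Of the 31-base sequences of Phgdh, 55.8% also occur in other genes, its pseudogene copies among them, so its counts are uncertain. Slc3a2 passed at 0.18 ± 0.06 (edgeR adjusted p = 0.0268), with 148 and 162 FPKM in PA, and at 0.43 without the GC trend (edgeR adjusted p = 0.000238).

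Chac1 went the other way. It measured 10.2 and 9.70 FPKM in Vehicle and 6.18 and 6.73 FPKM in PA, so that both PA libraries lay below both Vehicle libraries. The log2 fold change was -0.58 ± 0.12 (edgeR adjusted p = 0.000989), a 1.49-fold decrease just short of the 1.5-fold threshold, and the 95% interval ran from -0.83 to -0.33. Small changes of the fit carried it past the threshold, among them library-size scaling at -0.61 and the fits without PA replicate 2, at -0.65, or without Vehicle replicate 2, at -0.62. Removal of the GC trend left -0.23 (edgeR adjusted p = 0.141). Sesn2 likewise measured 10.6 and 10.7 FPKM in Vehicle and 8.15 and 8.85 FPKM in PA, at -0.28 ± 0.09 (edgeR adjusted p = 0.0193), and turned to 0.12 with the GC trend removed (edgeR adjusted p = 0.375). Ddit4, at 6.43 and 5.83 FPKM in PA, had a log2 fold change of -0.25 that did not pass (edgeR adjusted p = 0.172) and was 0.11 without the GC trend.

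Fgf21 could not be resolved. It had 9 and 7 expected counts in PA against 15 and 13 in Vehicle, and its 95% interval ran from -2.28 to 0.63 on the log2 scale. Across all 10 libraries it had between 7 and 16 counts, so changes well above 1.5-fold would have been missed at this depth.

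**Figure D3:**
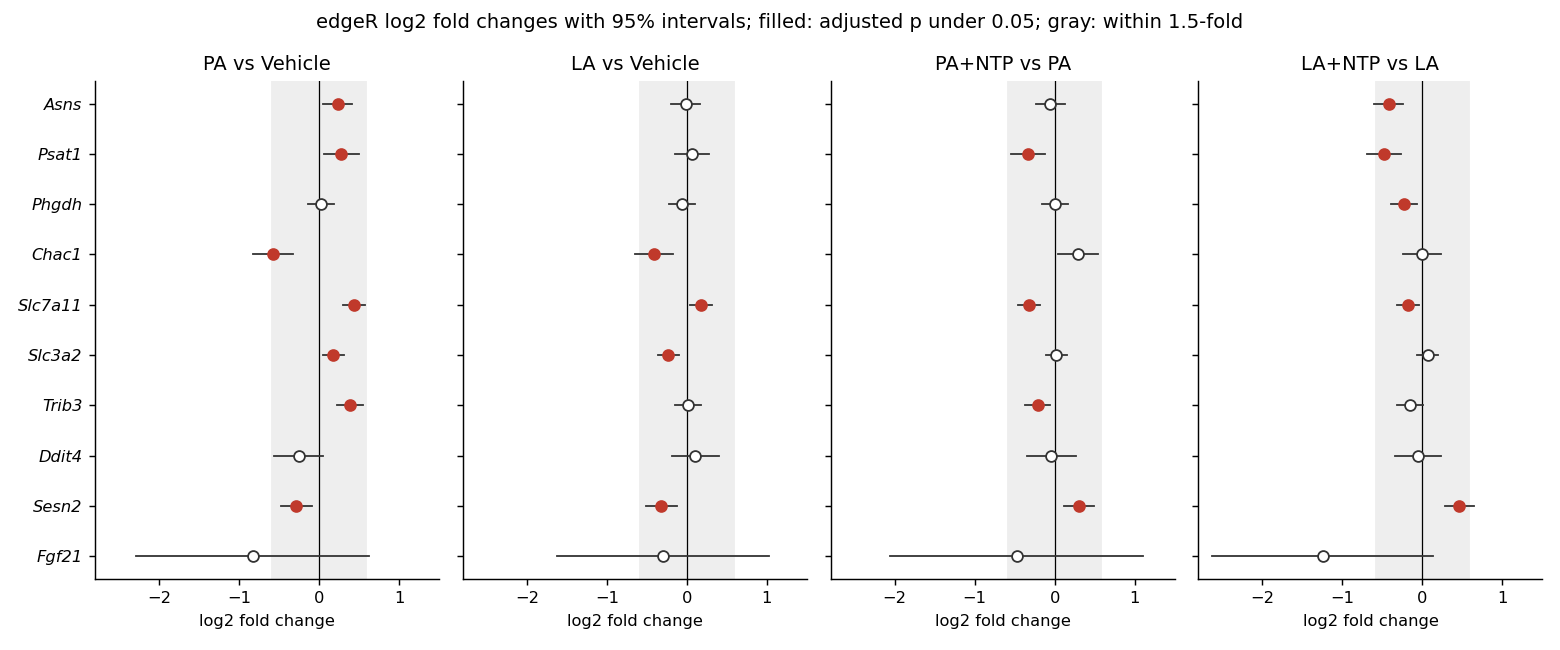
Log2 fold changes of the 10 genes (points) with 95% intervals (lines) in the 4 main comparisons, filled where the edgeR adjusted p is under 0.05, with the range within 1.5-fold in gray. All points lie in the gray range except those of Fgf21 in PA vs Vehicle and LA+NTP vs LA, and Fgf21 has the widest intervals.

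Linoleate, at its lower dose, also moved the 10 genes by small amounts. None of the 10 genes was called higher, where 3.53% of all genes were, or lower, where 7.11% were. By the adjusted p alone, 1 was higher (Slc7a11) and 3 were lower (Chac1, Slc3a2 and Sesn2), beside 20.8% and 20.5% of all genes. Slc7a11, Chac1 and Sesn2 had passed in the same direction with palmitate, and Slc3a2 in the other direction. The same Vehicle libraries serve the palmitate and linoleate comparisons, so a value that is high or low in Vehicle by chance would count in both. The median log2 fold change was -0.04, and the intervals of 8 of the 10 genes lay within 1.5-fold, Chac1 and Fgf21 again excepted. DESeq2 and both limma fits called none. In edgeR 4 genes had an unadjusted p under 0.05, beside 6872 of the 14097 genes tested. After removal of the GC trend none was called, beside 3.50% of all genes, and 2, Trib3 and Ddit4, passed higher by the adjusted p, beside 10.5%.

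Chac1 measured 7.50 and 6.97 FPKM in LA, below both Vehicle libraries, with a log2 fold change of -0.41 ± 0.11 (edgeR adjusted p = 0.00932). Slc3a2 measured 112 and 119 FPKM in LA against 140.3 and 140.15 in Vehicle, at -0.23 ± 0.06 (edgeR adjusted p = 0.00775). Sesn2 measured 8.10 and 8.47 FPKM in LA, at -0.32 ± 0.09 (edgeR adjusted p = 0.0104). All 3 are GC-rich, and with the GC trend removed they stood at -0.04, 0.02 and 0.11, with edgeR adjusted p-values of 0.832, 0.848 and 0.474.

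Slc7a11 was 77.6 and 78.2 FPKM in LA, a log2 fold change of 0.18 ± 0.06 (edgeR adjusted p = 0.0411), beside 0.44 in PA. It turned to -0.08 and did not pass once the GC trend was removed (edgeR adjusted p = 0.503). Trib3, at 19.0 and 21.1 FPKM in LA, straddled the Vehicle libraries and had a log2 fold change of 0.01 with an interval from -0.15 to 0.18. After removal of the GC trend it was 0.50 (edgeR adjusted p = 0.00116), beside 0.85 in PA. Asns had a log2 fold change of -0.02 and Psat1 of 0.06, and neither passed.

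Neurotropin given before palmitate lowered some of the genes that palmitate had raised. Both comparisons share the PA libraries, so a value that is high in PA by chance would count in both. None of the 10 genes was called higher, beside 8.74% of all genes, or lower, beside 5.11%. By the adjusted p alone, Sesn2 was higher and Psat1, Slc7a11 and Trib3 were lower, where 21.7% of all genes passed higher and 23.0% passed lower. The intervals of 9 of the 10 genes lay within 1.5-fold, all but that of Fgf21. DESeq2 and both limma fits called none. In edgeR 5 genes had an unadjusted p under 0.05, beside 7211 of the 14097 genes tested.

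Slc7a11 was 75.2 and 81.7 FPKM in PA+NTP, below both PA libraries and above both Vehicle libraries. Against PA its log2 fold change was -0.32 ± 0.06 (edgeR adjusted p = 0.00101), and with the GC trend removed it was -0.10 (edgeR adjusted p = 0.341). Trib3 had the same order, with 22.6 and 24.2 FPKM in PA+NTP, at -0.21 ± 0.07 (edgeR adjusted p = 0.0319). Once the GC trend was removed, Trib3 was called lower at -0.70 (edgeR adjusted p = 5.36e-05), as the only one of the 10, where 6.30% of all genes were called in either direction.

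Psat1 spread widely in PA+NTP, with 26.7 and 34.6 FPKM, and still passed at -0.34 ± 0.10 (edgeR adjusted p = 0.0131). Without PA+NTP replicate 1, the lower of the pair, it was -0.14, and with the GC trend removed it was -0.23 and did not pass (edgeR adjusted p = 0.105). Asns had similar means in PA+NTP and PA, with 61.5 and 68.1 FPKM and a log2 fold change of -0.05 whose interval ran from -0.23 to 0.13. Sesn2 measured 10.2 and 11.7 FPKM in PA+NTP, above both PA libraries, at 0.31 ± 0.09 (edgeR adjusted p = 0.0120), and -0.12 with the GC trend removed. Chac1, with 7.91 and 8.65 FPKM in PA+NTP, also lay above both PA libraries but did not pass (0.29 ± 0.11, edgeR adjusted p = 0.0521), and stood at -0.08 without the GC trend. Slc3a2 was highest in PA+NTP, at 161 and 167 FPKM, and did not differ from PA beyond its spread, with a log2 fold change of 0.02. Slc3a2, Phgdh and Ddit4, which did not pass here, passed lower once the GC trend was removed, at -0.24, -0.25 and -0.44 (edgeR adjusted p = 0.0129, 0.0255 and 0.0317).

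Neurotropin given before linoleate gave the lowest levels of the biosynthetic enzymes anywhere in the series. None of the 10 genes was called higher, against 11.7% of all genes, or lower, against 7.57%. By the adjusted p alone, Sesn2 was higher and Asns, Psat1, Phgdh and Slc7a11 were lower, where 25.9% and 25.6% of all genes passed in these directions. The median log2 fold change of the 10 genes was -0.17, beside 0.01 over all genes. The intervals of 6 of the 10 lay within 1.5-fold, all but those of Asns, Psat1, Sesn2 and Fgf21. DESeq2 and both limma fits called none. In edgeR 5 genes had an unadjusted p under 0.05, beside 8001 of the 14097 genes tested.

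Asns fell to 39.6 and 43.0 FPKM in LA+NTP, from 55.7 and 52.0 FPKM in LA. Its log2 fold change was -0.42 ± 0.08 (edgeR adjusted p = 0.000688), and as a gene of average GC content it stood at -0.42 with the GC trend removed. Psat1 fell to 22.8 and 23.8 FPKM, from 31.1 and 32.2 FPKM in LA, at -0.48 ± 0.10 (edgeR adjusted p = 0.000896), or -0.33 without the GC trend (edgeR adjusted p = 0.0242). Phgdh was 31.6 and 31.7 FPKM in LA+NTP, below every other library, at -0.23 ± 0.07 (edgeR adjusted p = 0.0195) and -0.55 without the GC trend (edgeR adjusted p = 0.000175), with the reservation on its pseudogenes given above. The 3 enzymes thus shared a direction and, over the 10 libraries, had Pearson correlations of log2 CPM of 0.83 (Asns with Psat1), 0.94 (Asns with Phgdh) and 0.82 (Psat1 with Phgdh), given as a description of libraries that share groups.

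Sesn2 rose to 11.9 and 11.6 FPKM in LA+NTP, above both LA libraries, at 0.46 ± 0.09 (edgeR adjusted p = 0.000431). With the GC trend removed this value was -0.09 (edgeR adjusted p = 0.504). Trib3, at 18.8 and 18.2 FPKM in LA+NTP, did not pass (-0.16 ± 0.07, edgeR adjusted p = 0.0891) and was called lower with the GC trend removed, at -0.79 (edgeR adjusted p = 1.89e-05), beside 6.22% of all genes called in either direction. Slc7a11, at -0.18 ± 0.06 (edgeR adjusted p = 0.0335), turned to 0.13 and did not pass with the trend removed (edgeR adjusted p = 0.194). With the trend removed, 7 of the 10 genes passed lower by the adjusted p, beside 17.1% of all genes, and none passed higher, beside 11.9%. Chac1, Slc3a2 and Ddit4 were among the 7, at -0.48, -0.26 and -0.56, and had not passed before.

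**Figure D4:**
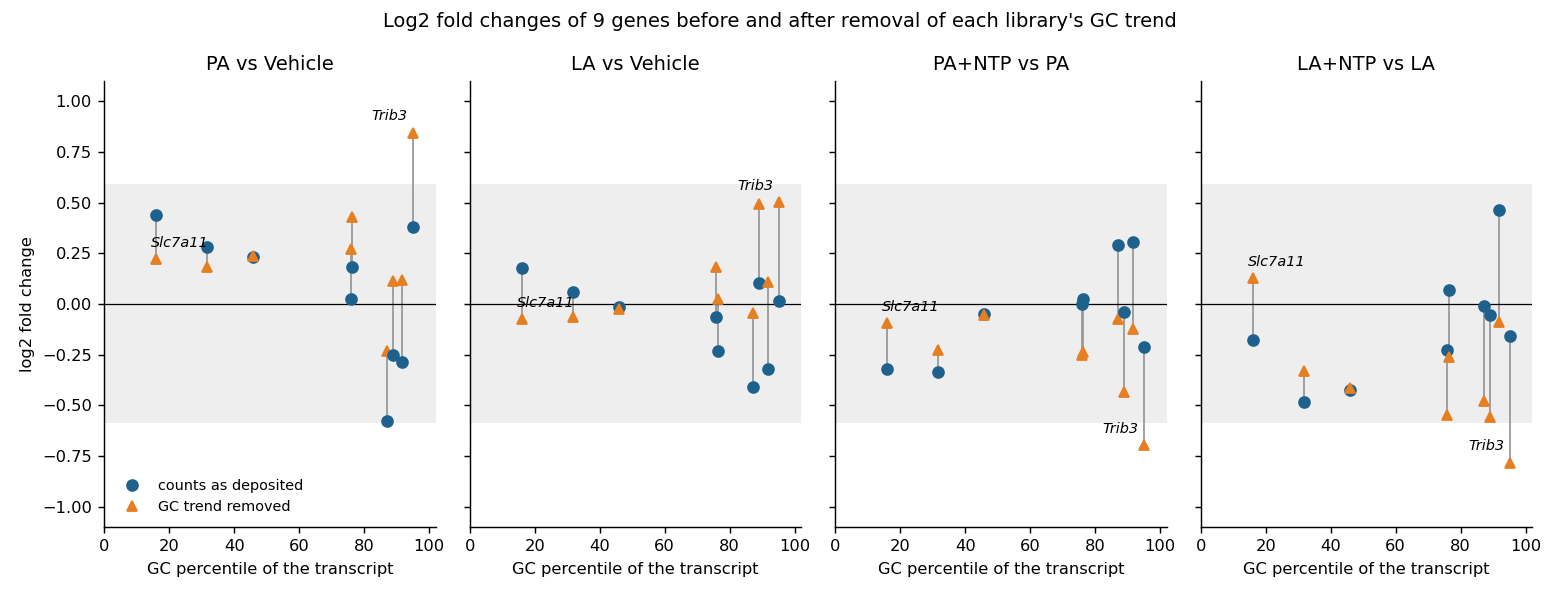
Log2 fold changes of 9 genes (vertical axes) against the GC percentile of their transcripts (horizontal axes), from counts as deposited (blue circles) and after removal of each library's GC trend (orange triangles), with Fgf21 left out for its few counts. Trib3, at percentile 95.1, moves the farthest outward, and Asns, at 45.9, barely moves.

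The groups given Neurotropin were also compared with Vehicle. In PA+NTP none of the 10 genes was called, beside 2.85% of all genes in either direction, and none passed by the adjusted p alone, beside 10.1%. In LA+NTP none was called, beside 0.0922% of all genes, and Asns alone passed by the adjusted p, beside 0.284%. Its log2 fold change against Vehicle was -0.44 ± 0.08 (edgeR adjusted p = 0.0474). With the GC trend removed the Asns value was again -0.44 but did not pass (edgeR adjusted p = 0.0852). At an unadjusted p under 0.05 the edgeR counts were 4 in PA+NTP and 6 in LA+NTP, beside 3476 and 2014 of the 14097 genes tested. DESeq2 and limma called none of the 10 in either.

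The effect of Neurotropin under palmitate was also set against its effect under linoleate as an interaction. No gene of the 10 and no gene overall was called, so that the percentage called was 0. The differences of the 10 genes ranged from -0.16 to 0.77 on the log2 scale, the highest being that of Fgf21, with edgeR adjusted p-values from 0.629 to 0.996. For 2 of the 10, Asns and Phgdh, the unadjusted p in edgeR was under 0.05, beside 1029 of the 14097 genes tested. DESeq2 and limma called none of the 10. The different patterns of Asns under the 2 fatty acids were therefore not shown to differ.

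In the order of the group means, 8 of the 10 genes had a fatty acid group, with or without Neurotropin, on top. Since every group but Vehicle received a fatty acid, a count of this size would arise from a random order too. Slc7a11, Trib3 and Psat1 were highest in PA, and for each of these both PA libraries lay above those of the next group. The top group was picked after the values were seen, and how often such a gap occurs over all genes was not counted. Asns, Slc3a2 and Phgdh were highest in PA+NTP, but each overlapped the next group. Sesn2 and Ddit4 were highest in LA+NTP and LA, each overlapping the next group, and Chac1 and Fgf21 were highest in Vehicle. LA+NTP was the lowest group for Asns, Psat1, Phgdh and Trib3. It was also lowest for Slc7a11, where it overlapped Vehicle, and for Fgf21, where it overlapped PA+NTP and rested on 9 and 11 counts.

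Of the 20 values that passed the adjusted p in the 4 comparisons, 7 still passed without each library in turn. These were the changes with palmitate of Chac1, Slc7a11 and Trib3, that of Slc7a11 with Neurotropin before palmitate, and those of Asns, Psat1 and Sesn2 with Neurotropin before linoleate. Each of the other 13 missed the adjusted p without at least 1 library. With palmitate, Asns and Slc3a2 missed it without either Vehicle library or without PA replicate 2 (edgeR adjusted p up to 0.443 and 0.222), Psat1 without any of the 4 libraries compared (up to 0.173) and Sesn2 without either Vehicle library or PA replicate 1 (up to 0.0925). With linoleate, Chac1 missed it without Vehicle replicate 1 or LA replicate 2 (up to 0.0667), Slc3a2 without LA replicate 1 (0.0834), Sesn2 without Vehicle replicate 2 or LA replicate 1 (up to 0.0794) and Slc7a11 without any of the 4 libraries compared or LA+NTP replicate 1 (up to 0.232). With Neurotropin before palmitate, Psat1 missed it without PA replicate 2 or PA+NTP replicate 1 (up to 0.161), Sesn2 without PA replicate 1 or PA+NTP replicate 2 (up to 0.152) and Trib3 without either PA library or PA+NTP replicate 1 (up to 0.219). Trib3 in that comparison also missed it in DESeq2 and in both limma fits, and Psat1 and Sesn2 in the fit of only the groups compared. Asns, Psat1 and Slc3a2 with palmitate missed it in both limma fits, and Sesn2 with the block by file number. Slc7a11 with linoleate, and with Neurotropin before linoleate, also missed it in both limma fits. Phgdh with Neurotropin before linoleate missed it in limma on log2(FPKM + 1). With Neurotropin before linoleate, Phgdh missed it without LA replicate 1 or either LA+NTP library (up to 0.102) and Slc7a11 without any of the 4 libraries compared (up to 0.177). With 2 libraries a group, an exact permutation test of a single gene cannot go below a p of 0.333, so the tests rest on the spread shared over genes in edgeR.

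Upstream of the 10 genes, the mRNA of Atf4 was not called in any of the 4 comparisons. It measured 131 and 132 FPKM in Vehicle, 121 and 127 in PA and 107 and 107 in LA, with log2 fold changes of -0.05 with palmitate (edgeR adjusted p = 0.475) and -0.25 with linoleate (edgeR adjusted p = 0.00281). With Neurotropin it stood at 0.12 after palmitate (edgeR adjusted p = 0.0968) and passed at 0.22 after linoleate (edgeR adjusted p = 0.00513). Without the GC trend the Atf4 values of the fatty acids were 0.20 with palmitate (edgeR adjusted p = 0.0239) and 0.00932 with linoleate (edgeR adjusted p = 0.941), and those of Neurotropin were -0.15 and -0.12 and did not pass. Ddit3, which encodes CHOP, a factor of the ER stress response downstream of ATF4, rose from between 36.7 and 38.1 FPKM in Vehicle to 43.6 and 53.9 FPKM in PA, at 0.40 ± 0.10 (edgeR adjusted p = 0.00607). With Neurotropin before palmitate it fell by 0.40 on the log2 scale (edgeR adjusted p = 0.00562), to 37.0 and 39.2 FPKM.

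The other genes of the pathway were taken from 6 lists of 62 genes, 61 of which passed the filter: kinases and phosphatase subunits of eIF2alpha, stress transcription factors, amino acid transporters, amino acid and one-carbon enzymes, further stress targets and cytosolic tRNA synthetases. With palmitate 2 of the 61 were called higher and 2 lower, where 6.00% and 8.92% of all genes were, and the median log2 fold change was 0.15. With linoleate none was called higher and 5 lower, beside 3.53% and 7.11% of all genes. With Neurotropin 3 were higher and 3 lower after palmitate, beside 8.74% and 5.11%, and 5 higher and 5 lower after linoleate, beside 11.7% and 7.57%. With the GC trend removed the palmitate counts became 6 higher and 0 lower, beside 3.90% and 4.83% of all genes. Those with linoleate became 2 higher and 1 lower, beside 3.50% of all genes called in either direction. With Neurotropin they became 0 higher and 4 lower after palmitate, beside 6.30%, and 2 higher and 4 lower after linoleate, beside 6.22%.

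Before removal of the GC trend, the genes called with palmitate or with Neurotropin went both ways, and those called with linoleate were all lower. After its removal, those called with palmitate were all higher and those called with Neurotropin after palmitate were all lower. The genes called in the other comparisons then went both ways. Vldlr, which takes up lipoproteins, rose with palmitate by 1.29 ± 0.23 (edgeR adjusted p = 0.000471). Its level was low, at means of 0.345 FPKM in Vehicle and 0.85 FPKM in PA. Gdf15, a stress hormone, fell by 0.85 (edgeR adjusted p = 0.000199) and stood at -0.31 with the GC trend removed. Cebpb and Cebpg, partners of ATF4 in binding to CAREs, stood at 0.58 and 0.48 with palmitate and at -0.68 and -0.55 with Neurotropin before it, and Cebpb was called higher with palmitate at 1.31 once the GC trend was removed. Atf5, a relative of ATF4, stood at -0.49 with palmitate and -0.64 with linoleate, and both values were near 0 once the GC trend was removed, at 0.11 and -0.02. Eif4ebp1, which restrains translation, was at -0.40 and -0.71 and kept its direction with the trend removed, at -0.32 and -0.64. The transporter Slc1a5, at a low Vehicle mean of 2.05 FPKM, was at -0.48 and -0.71. Slc7a5, which pairs with the Slc3a2 protein, was at -0.29 and -0.50. Without the GC trend the values of Slc1a5 were -0.31 and -0.54 and those of Slc7a5 were 0.02 and -0.17, of which only the -0.54 passed. Pycr1, of proline synthesis, was called lower with palmitate at -0.64 (edgeR adjusted p = 0.0421) and stood at -0.35 with the GC trend removed. It too was low, at means of 1.235 FPKM in Vehicle and 0.735 FPKM in PA. None of the 20 tRNA synthetases was called with palmitate, though their median was 0.32, and the named ones went both ways, with Nars1 at 0.53 and Vars1 at -0.32, the latter at 0.11 with the GC trend removed.

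The chaperones of the ER, targets of the ATF6 and XBP1 branches of the same stress response, were the list with the most genes called higher under palmitate. With palmitate 7 of 10 were called higher, beside 6.00% of all genes, and none lower, at a median log2 fold change of 0.92, and the count was also 7 with the GC trend removed, beside 3.90%. Hspa5, the main chaperone of the ER, rose from between 558 and 593 FPKM in Vehicle to 1184 and 1207 FPKM in PA, at 1.09 ± 0.06 (edgeR adjusted p = 2.74e-08). Hsp90b1 rose by 1.09 and Sdf2l1 by 1.20. With Neurotropin before palmitate 4 of the 10 were called lower, beside 5.11% of all genes, with Hspa5 at -0.81. With linoleate 1 was called higher, beside 3.53%, and with Neurotropin before it 3 were called lower, beside 7.57%. The difference between the chaperones and the 10 ATF4 targets is described here by counts and medians and was not tested.

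**Figure D5:**
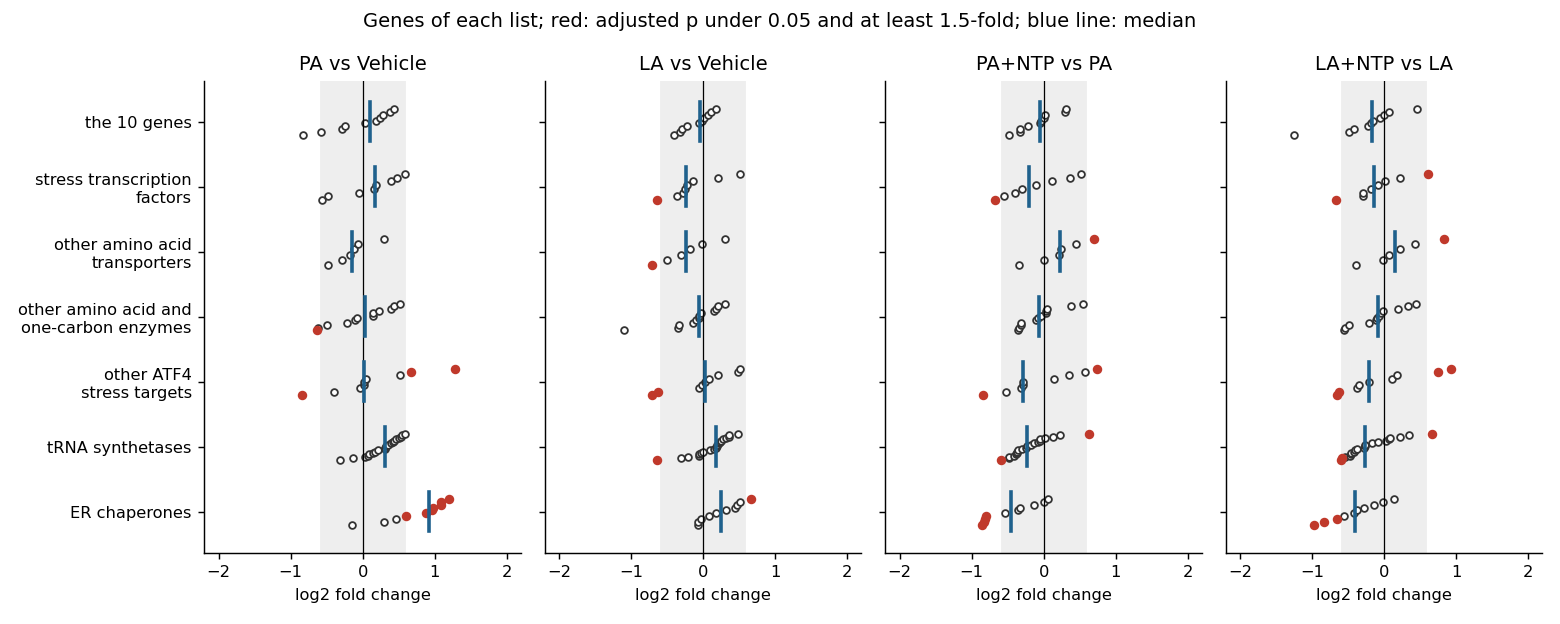
Log2 fold changes (horizontal axes) of the 10 genes, of 5 further lists of the ATF4 pathway and of the ER chaperones in the 4 main comparisons, with called genes in red, the median as a blue line and the range within 1.5-fold in gray. With palmitate 7 of 10 ER chaperones are red and none of the 10 genes is.

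Some of the 10 genes have other regulators too. Of the 8 targets of NRF2, which also drives Slc7a11, 1 was called higher with palmitate, beside 6.00% of all genes. This was Gsr, glutathione reductase, at 0.65 ± 0.06 (edgeR adjusted p = 3.27e-06), and the list median was 0.46. With the GC trend removed 2 of the 8 were called higher, beside 3.90% of all genes. The targets of PPARalpha, a factor that also drives Fgf21 in liver, had a median of 0.08 with palmitate. Of the 8 p53 targets, which share Sesn2 as a gene p53 can drive, only Phlda3 was called higher with Neurotropin before linoleate. It stood at 0.67, beside 11.7% of all genes called higher, and at 0.14 with the GC trend removed. Of the glucocorticoid targets, which share Ddit4, Per1 stood at -1.03 with palmitate, -1.23 with linoleate, 1.01 with Neurotropin before palmitate and 1.40 with Neurotropin before linoleate, whereas Ddit4 stood at -0.25, 0.10, -0.04 and -0.06. Mt2 of that list was at -0.35 and -0.71 with the fatty acids and at 0.63 and 0.85 with Neurotropin. No other gene of the 8 was called, and the list medians were -0.18, -0.10, 0.25 and 0.05. Called were 1 lower, 2 lower, 2 higher and 2 higher, beside 8.92%, 7.11%, 8.74% and 11.7% of all genes. With the GC trend removed Per1 stood at -0.62, -0.80, 0.58 and 0.84. Mt2 then stood at -0.17, -0.55, 0.46 and 0.63, of which the -0.17 did not pass.

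Outside the 10 genes, those whose log2 CPM followed Asns most closely over the 10 libraries were Diaph2 (Pearson r = 0.96), Frrs1 (0.95), Tfb1m (0.93), Myo5a (0.93) and Nek3 (0.93). For Trib3 they were Lyar (0.98), Ppfibp2 (0.98), Vps33a (0.97), Sgpl1 (0.97) and Mrps5 (0.97). These are the highest correlations among all tested genes, over libraries that share 5 groups, and no p is given. Among the 10 genes, Trib3 was closest to Slc7a11 (0.87), and Ddit4 ran opposite to Slc3a2 (-0.86).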

How the data were processed

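The submitters' processing notes name HISAT, Bowtie2, RSEM and the build mm10. For versions, annotation and strand setting, nothing is given in the sources used here. The deposited files hold, for every gene, an expected count estimated by RSEM and an FPKM value that the authors scaled for length and depth. Genes are listed by NCBI gene ID from an FPKM of 0.01 upward and a gene absent from a library was taken as 0. Of 18055 IDs, 17998 were matched to symbols by ID and 11 by RefSeq accession. Groups followed the labels. The dose of Neurotropin came from the methods of the study.

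The counts, once rounded, went into edgeR 4.0.16 (R 4.3.3), with 5 groups over 10 libraries, TMM scaling, filterByExpr and the quasi-likelihood test. Genes were called at an adjusted p under 0.05 and a fold of at least 1.5. The study's NOISeq was not run. Alternatives used DESeq2 1.42.0, limma 3.58.1, other scalings and filters, replicate blocks, each library left out, and removal of a loess trend (span 0.4) on transcript GC content from GENCODE M21. Depth ran from 13142588 to 60046937 counts, and replicate libraries differed by more than counting noise in every group. The scripts were tested on simulated data. The 10 genes and the lists were chosen with earlier results of these data known. Named from the other lists were Atf4, Ddit3 and, per list, up to 3 genes called in any of the 4 main comparisons with the largest change. Named for Asns and Trib3 were the 5 genes outside the 10 with the highest correlation at a mean FPKM of at least 1. Some genes that this rule names are not reported here.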

Additional observations from a re-analysis of the deposited data

How the results depend on the processing

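As reported, no gene of the 10 was called in any comparison. For PA against Vehicle the count was 1 under library-size scaling, a mean FPKM of at least 1, limma on log2(FPKM + 0.1) and a fit of only the groups compared (Chac1, lower). Over all genes tested these fits called 2138, 1744, 2170 and 2089, in that order. The count was also 1 under removal of the GC trend without and with the replicate block (Trib3, higher), beside 1231 and 1240 over all genes tested. Leaving out each library gave counts from 0 to 1. For Neurotropin before palmitate and before linoleate the count was 1 in both fits with the GC trend removed (Trib3, lower). Over all genes tested, these fits called 888 and 915 before palmitate and 877 and 890 before linoleate. Without the fold threshold the counts were 7 for PA, 4 for LA, 4 for PA+NTP against PA, 5 for LA+NTP against LA and 1 for LA+NTP against Vehicle. Of all 14097 genes tested, 6411, 5824, 6306, 7257 and 40 passed, in that order.

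Of 897 values compared over single genes and alternatives, 70 changed sign, 28 of them in the 2 fits with the GC trend removed, 23 without 1 library and 19 elsewhere. In 20 of them the value passed the adjusted p in either fit, and 0 of those lay outside the GC removals. With the GC trend removed, without and with the replicate block, the sign changes for LA against Vehicle were 0.18 and 0.19 for Phgdh, -0.0656 and -0.0645 for Psat1, 0.11 and 0.11 for Sesn2, 0.0228 and 0.0222 for Slc3a2 and -0.0753 and -0.0757 for Slc7a11. For LA+NTP against LA they were -0.0893 and -0.0915 for Sesn2, -0.26 and -0.26 for Slc3a2 and 0.13 and 0.13 for Slc7a11. For PA against Vehicle they were 0.11 and 0.13 for Ddit4 and 0.12 and 0.11 for Sesn2. For PA+NTP against PA they were -0.0765 and -0.0782 for Chac1, -0.25 and -0.25 for Phgdh, -0.12 and -0.12 for Sesn2 and -0.24 and -0.24 for Slc3a2. The cause was not tested.

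The other sign changes were of values that did not pass in either fit, and apart from those of Fgf21 they were small. Under library-size scaling, limma on log2(FPKM + 0.1) and limma on log2(FPKM + 1), in that order, they were -0.0316, -0.0302 and -0.0288 for Trib3 in LA against Vehicle, 0.0332, 0.0379 and 0.0339 for Chac1 in LA+NTP against LA, -0.00684, -0.0152 and -0.0148 for Phgdh in PA against Vehicle, 0.00464, 0.0155 and 0.0153 for Asns in PA+NTP against PA and 0.0152, 0.00181 and 0.00151 for Ddit4 in PA+NTP against PA. With a mean FPKM of at least 1 they were 0.00883 for Chac1 and -0.00232 for Phgdh in the same comparisons, with no filter 0.000991 for Chac1, and with DESeq2 -0.00428 for Phgdh in PA+NTP against PA. Without 1 library the ranges that crossed 0 were -0.0623 to 0.0389 for Asns, -0.0263 to 0.22 for Ddit4, -0.82 to 0.16 for Fgf21 and -0.0523 to 0.0923 for Trib3 in LA against Vehicle. They were -0.0493 to 0.0871 for Phgdh and -1.75 to 0.17 for Fgf21 in PA against Vehicle. They were -0.0783 to 0.0620 for Chac1 and -0.22 to 0.0975 for Ddit4 in LA+NTP against LA. In PA+NTP against PA they were -0.17 to 0.0761 for Asns, -0.14 to 0.0147 for Ddit4, -1.48 to 0.44 for Fgf21, -0.11 to 0.10 for Phgdh and -0.0407 to 0.0777 for Slc3a2.

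Same-numbered libraries had correlations of their deviations from -0.07 to 0.13, so the numbers did not pair the libraries, and with 2 libraries a group these correlations mirror each other. The replicate block, by label or by file number, left the count of called genes at 0 in all comparisons. The 2 libraries a group, the GC trend that followed the groups, and the 7 to 16 counts of Fgf21 limit these results.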
